A study of Mus musculus with 12 samples.

Results

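HoxA cluster genes were measured as 9 genes, Hoxa2, Hoxa3, Hoxa4, Hoxa5, Hoxa6, Hoxa7, Hoxa9, Hoxa10 and Hoxa11, of the 41388 genes counted in each library. They were taken by name, as the rows whose Ensembl identifier carries one of these symbols, and the list was drawn up with earlier results of these data known. The cells were dorsal root ganglion neurons of C57BL/6 mice aged 3 months, sorted by fluorescence. Per the labels and the series' design text, the mice carried a knock-in Ret allele (RetFloxedEGFP) with which EGFP appears once Cre has removed the floxed Ret segment, and Cre under the Scn10a locus (Scn10a<tm2(cre)Jnw>), which encodes the nociceptor sodium channel NaV1.8. The source label of every library, L345 included, names both alleles, and the design text gives the mice as heterozygous for the Ret knock-in. The genotype label of each of the 4 later-submitted libraries (female L6S1 B and C, male L6S1 C and female L345 D) names just 1 of the alleles, so that for these the other allele rests on the source label. The 4 groups were female L6S1, male L6S1, female L345 and male L345, with 3 libraries each, where L6S1 stands for pooled L6 and S1 ganglia and L345 for pooled L3, L4 and L5 ganglia. Each library was a pool of 12 to 32 ganglia from 2 to 8 mice, and the p-values measure the spread between pools. The labels do not say whether pools of the 2 levels shared mice. They disagree on the number of mice in male L345 C (5 or 3).

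Hox genes encode homeodomain transcription factors that assign position along the body axis. They lie in clusters, HoxA to HoxD, and genes at the 3′ side of a cluster are switched on earlier and further forward in the embryo than genes at its 5′ side, an order called collinearity. Genes at the same place in different clusters are paralogues and share a number. In spinal cord and ganglia the Hox code of the embryo is kept in part in mature neurons, and at lumbar and sacral levels posterior genes are among those that mark position. The comparison between L6S1 and L345 asks how the adult, Ret-expressing nociceptors of these adjacent levels differ in that code.

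The third helix of the homeodomain enters the major groove of DNA. A stretch of 13 codons from it is given below for 7 of the 9 genes, because this stretch codes for the part of the protein that touches DNA. They were read from the GENCODE M21 transcripts (build GRCm38, chromosome 6, minus strand). Capitals mark bases that differ from Hoxa10 at the same place.
Hoxa2: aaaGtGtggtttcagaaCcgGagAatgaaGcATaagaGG
Hoxa4: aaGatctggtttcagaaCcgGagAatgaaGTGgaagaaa
Hoxa5: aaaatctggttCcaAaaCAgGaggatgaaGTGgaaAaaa
Hoxa6: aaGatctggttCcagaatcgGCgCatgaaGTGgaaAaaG
Hoxa7: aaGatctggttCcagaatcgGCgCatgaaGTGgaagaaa
Hoxa10: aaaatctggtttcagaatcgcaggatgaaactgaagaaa
Hoxa11: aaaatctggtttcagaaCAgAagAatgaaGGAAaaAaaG
Of the 39 bases, 10 differed from Hoxa10 in Hoxa2, Hoxa6 and Hoxa11, and 9 in Hoxa5. A codon can differ without a change of its amino acid, so these counts do not measure how alike the proteins are.

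For the genes whose values the results turn on, the promoter windows were read from RefSeq (assembly GRCm38.p6, minus strand), from 250 bases before to 50 bases after the start. Windows were found for 8 of the 9 genes, 9 in all, since Hoxa10 has 2. Hoxa5 and Hoxa6 are shown because both were lower at L6S1, and 1 window of Hoxa10 because Hoxa10 was the most abundant gene. Of its 2 windows, the one that holds a motif match is shown.
Hoxa5, chr6:52204538-52204837: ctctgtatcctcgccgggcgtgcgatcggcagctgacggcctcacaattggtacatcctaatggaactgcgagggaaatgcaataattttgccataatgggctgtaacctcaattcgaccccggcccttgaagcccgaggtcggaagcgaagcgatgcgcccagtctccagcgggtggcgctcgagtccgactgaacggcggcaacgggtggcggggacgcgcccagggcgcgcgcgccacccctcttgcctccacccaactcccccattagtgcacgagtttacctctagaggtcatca
Hoxa6, chr6:52208623-52208922: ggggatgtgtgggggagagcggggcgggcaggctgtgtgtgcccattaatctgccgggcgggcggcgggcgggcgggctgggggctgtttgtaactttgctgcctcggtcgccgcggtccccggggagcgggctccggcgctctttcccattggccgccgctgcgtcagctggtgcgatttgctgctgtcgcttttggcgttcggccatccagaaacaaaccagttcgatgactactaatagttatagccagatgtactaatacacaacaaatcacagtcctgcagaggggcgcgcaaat
Hoxa10, chr6:52234890-52235189: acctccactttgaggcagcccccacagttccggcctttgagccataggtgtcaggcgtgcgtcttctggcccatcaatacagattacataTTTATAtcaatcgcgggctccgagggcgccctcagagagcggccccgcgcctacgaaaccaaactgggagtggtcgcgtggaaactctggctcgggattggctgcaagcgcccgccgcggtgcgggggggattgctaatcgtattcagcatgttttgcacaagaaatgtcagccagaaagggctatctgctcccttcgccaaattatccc
These 3 windows held 29, 26 and 21 CpG dinucleotides, against a median of 7 over all 32851 promoters of the table. Of all promoters, 87.1%, 83.1% and 75.2% held fewer than the Hoxa5, Hoxa6 and Hoxa10 windows. These windows are the 3 highest of the 9: the other Hoxa10 window held 12, and the remaining windows held 4 (Hoxa9) to 20. The capitals in the Hoxa10 window mark a TATAAA read on the opposite strand. TATAAA, searched on both strands, was in 13.6% of all promoters. TGATTNAT, a site for Pbx and Hox proteins together, was in 3.22% of all promoters, in 1 window of Hoxa2 and in none of these 3. TTTATNG, a Cdx-type site, was in 10.9% of all promoters and in none of the 9 windows. A match or its absence describes these letters and nothing more.

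The total count was lowest in female L6S1 A (16176436) and highest in female L345 D (26694404), so that 3 counts, the smallest amount taken as detection, came to 0.112 to 0.185 CPM, the count scaled to its library's total. CPM values below are also scaled by TMM, a correction for library composition. The female L6S1 libraries resembled each other less than the rest: rank correlations were 0.958 to 0.963 within female L6S1 and 0.986 to 0.993 within the other groups. Of these, B and C came from the later submission, which holds 3 L6S1 libraries and 1 L345 library (female L345 D), too few for values of its own. Of the marker lists, the summed fibroblast genes lay at 126 to 331 CPM in L6S1 and 69.1 to 93.1 CPM in L345, with 1 of 6 called higher, and the immune genes at 7.18 to 183 CPM in L6S1 and 3.71 to 5.11 CPM in L345, with 2 of 4 tested called higher. Markers of the sorted neurons lay at 14197 to 20352 CPM in L6S1 and 13726 to 14998 CPM in L345 (1 of 11 called), those of satellite glia and Schwann cells at 3904 to 4764 CPM in L6S1 and 3702 to 4374 CPM in L345 (0 of 10 called), and the motor neuron marker Mnx1 was at 0. The 1 skeletal muscle gene tested was called higher, and of the endothelial, red blood cell and spinal cord lists 0 were called. Beside these counts, 1.45% of all genes tested were called higher and 0.877% lower. Scn10a, whose locus drives Cre, lay at 359 to 540 CPM in L6S1 and 453 to 678 CPM in L345, and Ret at 137 to 230 CPM in L6S1 and 135 to 201 CPM in L345. The part of these other cells in the results below was not tested. In bulk RNA, fewer cells of a type and less RNA per cell cannot be told apart.

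A trio of genes carried nearly all of the HoxA counts. Hoxa7, Hoxa9 and Hoxa10 made up 95.9 to 98.2% of the members' counts in the L6S1 libraries and 96.1 to 97.5% in the L345 libraries. Per kilobase of exon, the L6S1 order was Hoxa10 (14.1 ± 2.69 CPM per kb, SD, n = 6), Hoxa7 (8.2 ± 1.88), Hoxa9 (5.75 ± 1.65), Hoxa5 (0.827 ± 0.257), Hoxa4 (0.451 ± 0.236), Hoxa6 (0.15 ± 0.126), Hoxa2 (0.0518 ± 0.0456), Hoxa3 (0.0217 ± 0.0353) and Hoxa11 (0.00308 ± 0.00755). In L345 it was Hoxa10 (17.1 ± 1.02 CPM per kb), Hoxa7 (11.1 ± 1.08), Hoxa9 (8.52 ± 0.991), Hoxa5 (1.75 ± 0.174), Hoxa6 (0.534 ± 0.16), Hoxa4 (0.435 ± 0.12), Hoxa2 (0.0623 ± 0.0549), Hoxa3 (0.0604 ± 0.0223) and Hoxa11, with no count. In L6S1, Hoxa10 and Hoxa7 did not overlap in mean ± SD, nor did Hoxa9 and Hoxa5, while every other pair of neighbours in the order did. In L345 the pairs that overlapped were Hoxa6 with Hoxa4 and Hoxa2 with Hoxa3. The levels were thus high from Hoxa7 to Hoxa10, low from Hoxa2 to Hoxa6, and under detection at Hoxa11, as the plot in cluster order shows.

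**Figure D1:**
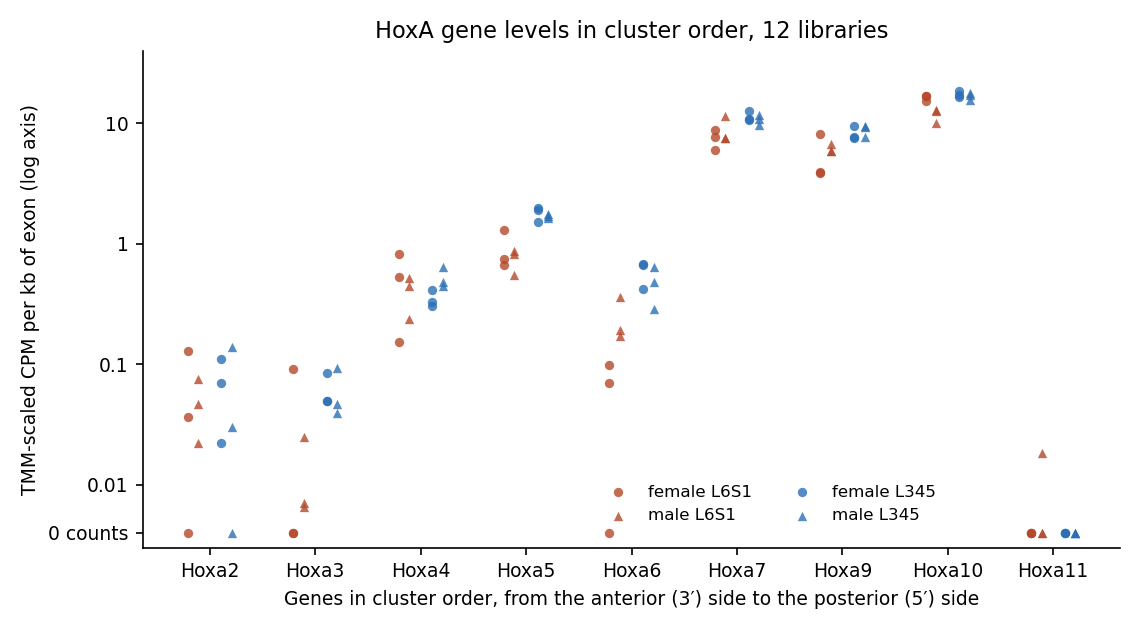
HoxA gene levels in each of the 12 libraries, as TMM-scaled CPM per kilobase of exon on a log axis, with genes in cluster order along the x axis, L6S1 left of L345 for each gene, circles for females and triangles for males, and libraries with no count drawn at the tick labelled 0 counts. Hoxa7, Hoxa9 and Hoxa10 stand above the rest in every library, and Hoxa11 is at 0 in 11 of 12 libraries.

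Of the 9 genes, 7 passed the filter on low counts and were tested. Hoxa5 and Hoxa6 fell at L6S1, none rose, and 5 did not pass (edgeR's quasi-likelihood test, adjusted p under 0.05 over all genes). Over all 15281 genes tested, 0.877% were called lower, 1.45% higher and 2.33% either way. The log2 fold change was negative for 6 of the 7 members, with a median of -0.57, against a median of -0.06 over all genes tested, of which 8475 were negative. At an unadjusted p under 0.05 in edgeR stood 6 of the 7 members, against 26.6% of all genes. DESeq2 called Hoxa5 and Hoxa9 (9.94% of all genes) and gave Hoxa3 and Hoxa6 no adjusted p, so that it could not call them. By limma-voom 6 members were called, Hoxa4 being the exception (21.4% of all genes). Over all genes tested, the fold change at L6S1 was lower for longer genes (Spearman rho -0.36 across genes, which are not independent replicates). With offsets for GC and length together, edgeR called Hoxa5, Hoxa6 and Hoxa7, and 1027 of 15193 genes in all. Hoxa5 was then at -1.18 ± 0.22 on the log2 scale (edgeR adjusted p = 0.0079). The part of length alone in the members' values was not tested. The summed level of the 9 genes was 96.3 to 132 CPM in the L6S1 libraries and 135 to 165 CPM in the L345 libraries, without overlap. Among single genes tested, 3.24% had no overlap and 1.22% had none with L6S1 lower. Hoxa7, Hoxa9 and Hoxa10 made up nearly all of that sum, and each of them overlapped between the levels and did not pass.

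Hoxa5 is known for its roles in lung development and in the phrenic motor neurons of the neck. Its locus is at chromosome 6, 52201754 to 52204587 (minus strand, ENSMUSG00000038253), in 2 exon blocks. It had 1.4, 2.43 and 1.26 CPM in female L6S1 A, B and C and 1.03, 1.65 and 1.54 CPM in male L6S1 A, B and C, against 3.56, 3.75 and 2.86 CPM in female L345 B, C and D and 3.07, 3.3 and 3.18 CPM in male L345 A, B and C. Every L6S1 library lay below every L345 library, with female L6S1 B the highest of its level. It was the only member without overlap, whereas 3.24% of all genes tested had no overlap and 1.22% had none with L6S1 lower. Hoxa5 fell to 1.55 ± 0.483 CPM at L6S1, against 3.29 ± 0.327 CPM at L345 (SD, n = 6 each), or -1.08 ± 0.21 (SE) on the log2 scale, 2.12-fold lower (edgeR adjusted p = 0.0195). An exact two-sided permutation of the level labels within each sex gave p = 0.005, the smallest that its 400 rearrangements allow. The level effect was -0.99 ± 0.30 in females and -1.17 ± 0.30 in males on the log2 scale, and neither passed alone (edgeR adjusted p = 0.129 and 0.237). In the first submission alone the fold change was -1.32 ± 0.25 (edgeR adjusted p = 0.0139), and with a term for the submission -1.10 ± 0.24 (edgeR adjusted p = 0.0555), which does not pass. The call also ended without any 1 of male L6S1 A or C, female L345 B or C, or male L345 A or C (edgeR adjusted p = 0.0511 to 0.0667).

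Hoxa6, a trunk Hox gene next to Hoxa5, is at 52206288 to 52208722 (ENSMUSG00000043219). It had 1, 2 and 0 counts in female L6S1 A, B and C and 8, 4 and 4 counts in male L6S1 A, B and C, against 16, 15 and 10 counts in female L345 B, C and D and 9, 5 and 14 counts in male L345 A, B and C. The libraries of the 2 levels overlapped in 1 place: male L6S1 A (0.318 CPM) was above male L345 B (0.254 CPM). Hoxa6 fell to 0.131 ± 0.11 CPM, against 0.466 ± 0.14 CPM at L345 (SD, n = 6 each), or -2.13 ± 0.47 on the log2 scale, 4.39-fold lower (edgeR adjusted p = 0.0345; exact permutation within sex, p = 0.01). The female values at L6S1 were at or below 3 counts, so the fold change rests on few counts. The effect was -3.31 ± 0.74 in females (edgeR adjusted p = 0.0801) and -0.96 ± 0.58 in males (edgeR adjusted p = 0.607), and the difference between the sexes was -2.34 ± 0.97 (edgeR adjusted p = 0.871). In the first submission alone the fold change was -1.98 ± 0.68 (edgeR adjusted p = 0.115), with a term for the submission -1.91 ± 0.50 (edgeR adjusted p = 0.105), and without female L6S1 B and C -1.98 ± 0.63 (edgeR adjusted p = 0.187), none of which passes. It also did not pass without any 1 of female L6S1 C, male L6S1 A, B or C, female L345 B or C, or male L345 A or C (edgeR adjusted p = 0.0598 to 0.116).

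**Figure D2:**
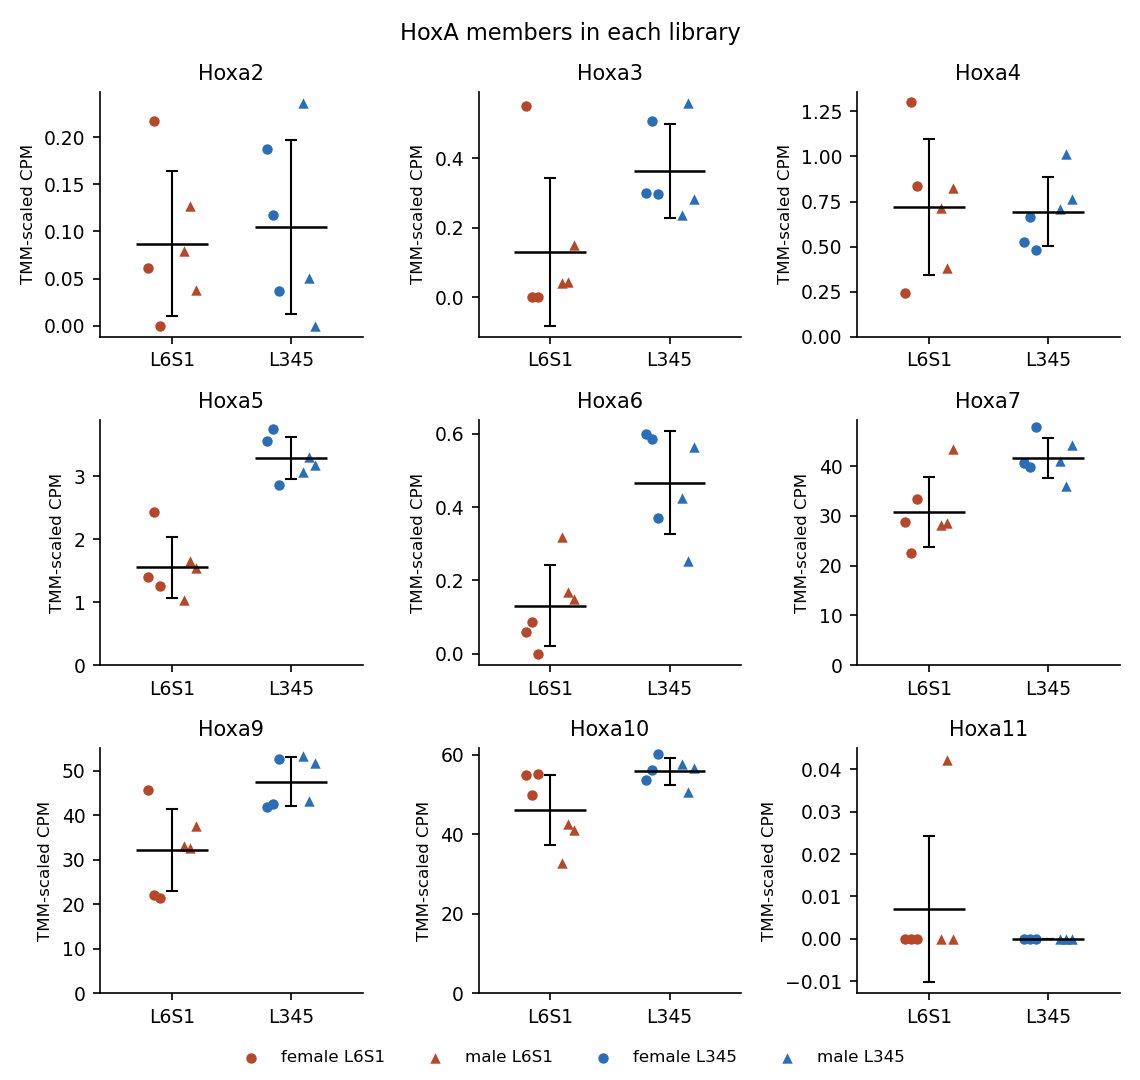
TMM-scaled CPM of each of the 9 genes in each library, L6S1 left of L345, circles for females and triangles for males, with the mean (line) and SD (bar) over the 6 libraries of a level. Hoxa5 is the gene whose 6 L6S1 libraries all lie below its 6 L345 libraries.

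Hoxa7, Hoxa9 and Hoxa10, which cover the trunk and lumbar levels in the embryo, were the abundant members. Their fold changes did not pass in the edgeR fit reported here, and each passed in some of the 10 alternatives: Hoxa9 in 4, Hoxa7 in 3 and Hoxa10 in 1. Hoxa7 (52214491 to 52221854, ENSMUSG00000038236) lay at 22.6, 28.7 and 43.4 CPM (lowest, median, highest) in L6S1 libraries and at 36.1, 40.9 and 48.0 CPM in L345 libraries, and 5 of 6 L6S1 libraries were below the lowest L345 library. Its means were 30.8 ± 7.05 CPM at L6S1 and 41.7 ± 4.05 CPM at L345, and on the log2 scale the change was -0.44 ± 0.15 (edgeR adjusted p = 0.099; exact permutation within sex, p = 0.02). The exception was male L6S1 C, at 43.4 CPM. Hoxa7 passed with limma-voom (adjusted p = 0.0236), in the first submission alone (edgeR adjusted p = 0.0392) and with GC and length offsets (edgeR adjusted p = 0.0455), and also without female L6S1 A (edgeR adjusted p = 0.0479). The fit without female L6S1 A called 4031 of 15683 genes. Of the exonic bases of Hoxa7, 15.6% are shared with the antisense gene Hoxaas3, and without strand the reads of the 2 cannot be told apart.

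Hoxa9 (52223100 to 52231089, ENSMUSG00000038227), best known for its part in blood stem cells and leukaemia, lay at 21.5, 32.8 and 45.6 CPM in L6S1 libraries and at 41.9, 47.4 and 53.4 CPM in L345 libraries. Its means were 32.1 ± 9.23 CPM at L6S1 and 47.6 ± 5.53 CPM at L345, and on the log2 scale the change was -0.57 ± 0.18 (edgeR adjusted p = 0.0843; exact permutation within sex, p = 0.015). The spread within L6S1 came from the female libraries, at 45.6, 22.1 and 21.5 CPM in A, B and C, and the 3 male L6S1 libraries lay at 33.1, 32.6 and 37.7 CPM. Without female L6S1 B and C the fold change was -0.27 ± 0.13 (edgeR adjusted p = 0.359). In the first submission alone it was -0.25 ± 0.12 (edgeR adjusted p = 0.239). Without female L6S1 A, the highest of its level, it was -0.79 ± 0.12 (edgeR adjusted p = 0.000645), in a fit that called 4031 of 15683 genes. Hoxa9 also passed with DESeq2 (adjusted p = 0.0365), limma-voom (adjusted p = 0.00892), no filter (edgeR adjusted p = 0.0299) and the replicate block (edgeR adjusted p = 0.0402).

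Hoxa10 (52231197 to 52240854, ENSMUSG00000000938), which shapes lumbar vertebrae, the lumbar motor column and the uterus, lay at 32.9, 46.3 and 55.1 CPM in L6S1 libraries and at 50.7, 56.5 and 60.3 CPM in L345 libraries. Its means were 46.1 ± 8.78 CPM at L6S1 and 55.9 ± 3.33 CPM at L345, and on the log2 scale the change was -0.30 ± 0.11 (edgeR adjusted p = 0.120; exact permutation within sex, p = 0.02; limma-voom adjusted p = 0.0403). The 3 male L6S1 libraries, at 32.9, 42.5 and 41.1 CPM, were below every L345 library, while the female L6S1 libraries, at 49.98 to 55.1 CPM, lay among or just below them. The fold change was -0.09 ± 0.16 in females and -0.50 ± 0.16 in males, and their difference was 0.41 ± 0.22 (edgeR adjusted p = 0.871). No gene of the 15281 passed for that difference between the sexes in edgeR, 714 of them (4.67%) at an unadjusted p under 0.05, and among the 7 members 1 was at an unadjusted p under 0.05 and none was called by DESeq2 or limma-voom.

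Within a library, where scaling cancels, the abundant members were not in one proportion. Hoxa10 stood at 226 and 256 counts per 100 Hoxa9 counts in female L6S1 B and C, and at 99.5 to 132 in the other 10 libraries. Hoxa5 stood at 2.28 to 4.87 counts per 100 Hoxa10 counts in L6S1 libraries and at 4.74 to 6.66 in L345 libraries, and just female L6S1 B overlapped. Per 100 Hoxa7 counts, Hoxa5 stood at 3.55 to 10.7 in L6S1 libraries and at 5.96 to 9.43 in L345 libraries. There female L6S1 B, at 10.7, was above every other library of both levels.

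**Figure D3:**
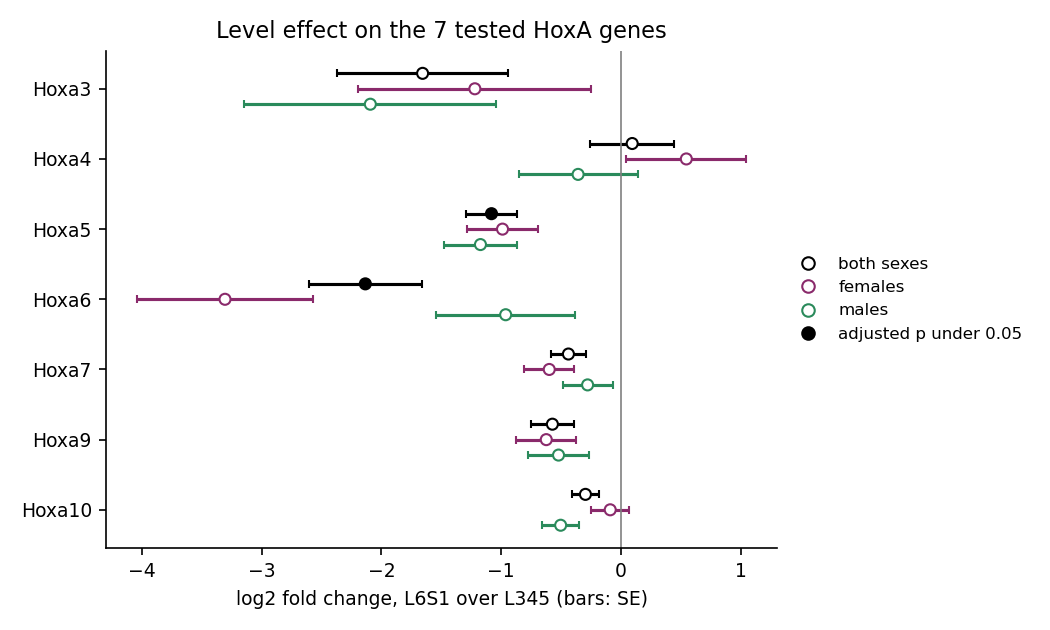
Log2 fold change of L6S1 over L345 for the 7 tested members, with bars for the SE, both sexes in black, females in purple and males in green, and filled points for an edgeR adjusted p under 0.05. Only the values of Hoxa5 and Hoxa6 over both sexes are filled.

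The anterior members were low or at the floor. Hoxa4 (52189671 to 52191753, ENSMUSG00000000942), which helps pattern the vertebrae of the neck, lay at 0.244, 0.771 and 1.3 CPM in L6S1 libraries and at 0.483, 0.686 and 1.01 CPM in L345 libraries, with overlap throughout. Its log2 fold change was 0.09 ± 0.35 (edgeR adjusted p = 0.877), and it changed sign to -0.93 ± 0.48 in the first submission alone and to -0.77 ± 0.43 without female L6S1 B and C. Hoxa3 (52169062 to 52213336, ENSMUSG00000079560), which patterns the thymus and the pharyngeal arches, had 9, 0 and 0 counts in female L6S1 A, B and C and 1, 1 and 4 in male L6S1 A, B and C, against 5 to 13 counts in L345 libraries. Its log2 fold change was -1.66 ± 0.72 (edgeR adjusted p = 0.164; exact permutation within sex, p = 0.04). Without female L6S1 A it was -4.14 ± 0.78 (edgeR adjusted p = 0.0032), in a fit that called 4031 of 15683 genes. Of the exonic bases of Hoxa3, 27.1% are shared with other genes, with 482 bases shared on the same strand and 1529 on the opposite strand. Reads on the same-strand bases cannot be told apart from those genes' reads, nor, without strand, can those on the opposite-strand bases. Hoxa2 (52162511 to 52164831, ENSMUSG00000014704), which patterns the hindbrain, had 0 to 5 counts in L6S1 libraries and 0 to 5 counts in L345 libraries (exact permutation within sex, p = 0.755) and was not tested in the fit across all genes. Hoxa11 (52242106 to 52245810, ENSMUSG00000038210), which shapes the forearm and the uterus, had 1 count in male L6S1 B and 0 in the other 11 libraries, which leaves its level under 3 counts, or 0.185 CPM, in every library. Of the exonic bases of Hoxa11, 35.0% are shared with Hoxa11os on the opposite strand, where without strand the reads of the 2 cannot be told apart.

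Other genes annotated in the cluster numbered 28, of which 17 had no count. Hotairm1, Gm27477, Hoxaas2, Gm15050 and Hoxaas3 were among those that reached 10 counts in a library. None of these was called by edgeR in the level contrast, against 2.33% of all genes tested. At that share, so short a list would hold few calls. Hotairm1, Gm27477 and Hoxaas2 were at an unadjusted p under 0.05 in edgeR, against 26.6% of all genes, and Gm15050 and Hoxaas3 were not. All had negative log2 fold changes: -0.94 ± 0.39 (Hotairm1), -1.15 ± 0.45 (Gm27477), -0.81 ± 0.40 (Gm15050), -0.33 ± 0.33 (Hoxaas3), and Hoxaas2 as given below. Hoxa13, Hottip and Evx1 had no count. Hoxaas2, a transcript on the strand opposite the members, had 31, 2 and 9 counts in female L6S1 A, B and C and 54 to 83 counts in male L6S1 libraries, against 65 to 109 counts in L345 libraries (-1.33 ± 0.40 on the log2 scale, edgeR adjusted p = 0.0799). Its lowest values stand in female L6S1 B and C, where Hoxa9 was low too. In female L6S1 A, Hoxaas2 (1.89 CPM) was also below every male L6S1 library and every L345 library. Hoxa9 in that library (45.6 CPM) was the highest of its level.

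Paralogues give the same positions in the other clusters, so that each HoxA gene can be read beside its relatives. Of the 28 HoxB, HoxC and HoxD genes, 19 were tested: Hoxd11, Hoxd10, Hoxd9, Hoxc11 and Hoxc10 rose, Hoxb7, Hoxb6, Hoxb5, Hoxc9, Hoxc8 and Hoxc6 fell, and 8 did not pass, with a median log2 fold change of -0.68. Over all genes tested, 1.45% were called higher and 0.877% lower. The ratio of a member's counts to its paralogue's within each library was compared between levels for the 13 pairs with both genes tested, by an exact permutation within sex, with Benjamini-Hochberg adjustment over the 13 pairs. These tests were chosen after the values had been seen. By that exact permutation the ratio differed in 4 pairs, each with p = 0.005, the smallest possible, an adjusted p of 0.0163 and no overlap between the levels.

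Hoxa10 and its HoxD paralogue differed by the widest margin. The log2 ratio of Hoxa10 to Hoxd10 was -0.87, -0.61 and -0.40 (lowest, median, highest) in L6S1 libraries and 2.63, 2.92 and 5.61 in L345 libraries, a difference of -3.96. So Hoxd10 counts exceeded Hoxa10 counts in every L6S1 library and were below them in every L345 library. Hoxa10 to Hoxc10 differed by -1.37, with 0.32 to 1.23 in L6S1 libraries and 1.91 to 3.14 in L345 libraries. Hoxa9 to Hoxd9 differed by -2.05, with 0.98 to 2.29 in L6S1 libraries and 3.43 to 4.43 in L345 libraries. Hoxa7 to Hoxb7 went the other way, by 2.55, with 5.5 to 6.65 in L6S1 libraries and 3.03 to 3.74 in L345 libraries. There Hoxb7 had a log2 fold change of -3.06 ± 0.23 and Hoxa7 of -0.44 ± 0.15. In the first submission alone the 4 differences, in the same sequence, were -3.83, -1.30, -1.69 and 2.22.

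For Hoxa5 and Hoxa6 the ratios to their paralogues did not pass, nor did those of the other pairs (9 pairs, adjusted p = 0.214 to 0.675 over the 13, exact permutation). Hoxa5 to Hoxb5 differed by 0.17 on the log2 scale (exact permutation p = 0.675), and the fold changes were -1.08 ± 0.21 for Hoxa5 and -1.26 ± 0.18 for Hoxb5. Hoxa6 to Hoxb6 differed by 0.31 (exact permutation p = 0.65), with fold changes of -2.13 ± 0.47 for Hoxa6 and -2.41 ± 0.26 for Hoxb6, and Hoxa6 to Hoxc6 by 0.39 (exact permutation p = 0.345). A p that misses the threshold does not show that these pairs act alike. The plot by paralogue group shows Hoxa5 near Hoxb5 and Hoxa6 near Hoxb6 and Hoxc6, and the members of the 4 passing pairs apart.

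**Figure D4:**
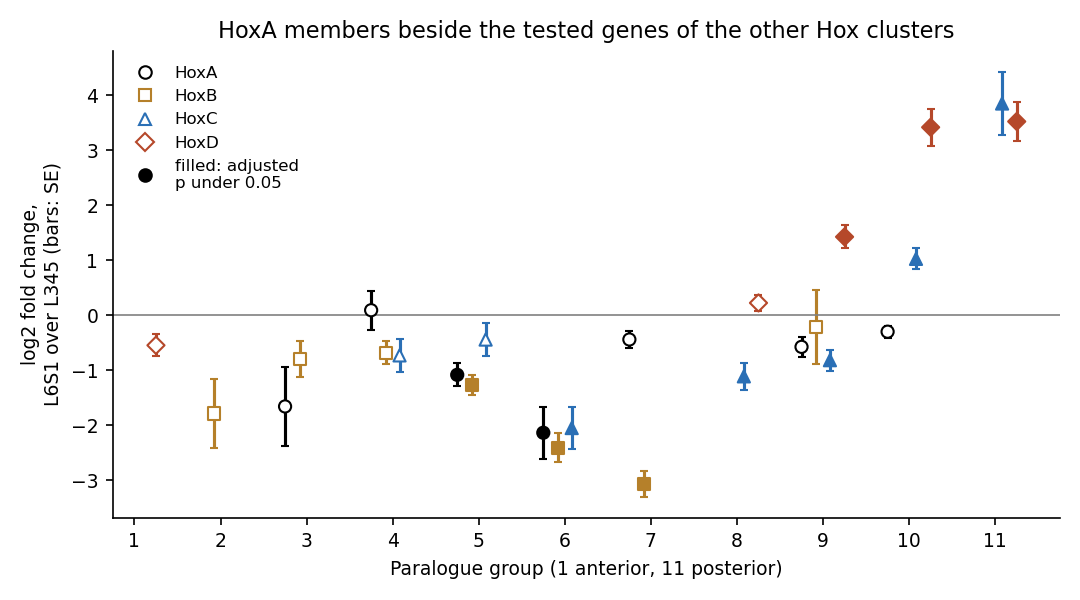
Log2 fold change of L6S1 over L345 (bars: SE) for the tested genes of the Hox clusters by paralogue group, with filled points for an edgeR adjusted p under 0.05. Hoxa10 at -0.30 lies below Hoxc10 at 1.03 and Hoxd10 at 3.42, and Hoxa7 at -0.44 lies above Hoxb7 at -3.06.

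In the lists of partners and regulators of Hox genes edgeR called just Rxrg, while it called 2.33% of all genes tested. At that share, lists this short would hold few calls. Of 9 Hox cofactors (Pbx, Meis and Pknox genes) 0 were called by edgeR, with a median log2 fold change of -0.08, and 1 was at an unadjusted p under 0.05, 1 called by DESeq2 and 1 by limma-voom. Of 22 Polycomb and Trithorax genes, which keep Hox genes off or on, 0 were called by edgeR (median -0.23), while 6 were at an unadjusted p under 0.05, 3 called by DESeq2 and 5 by limma-voom. Of Ctcf and Rad21, which fold the cluster into loops, 0 were called by edgeR (median -0.35), and 1 was at an unadjusted p under 0.05, 1 called by DESeq2 and 1 by limma-voom. For comparison, 4060 of all 15281 genes (26.6%) were at an unadjusted p under 0.05 in edgeR. DESeq2 called 9.94% of all genes and limma-voom 21.4%. Of 9 tested retinoic acid receptors and enzymes, 1 was called: Rxrg, a retinoid receptor, at 50.8 ± 8.24 CPM in L6S1 libraries and 30.8 ± 6.17 CPM in L345 libraries (0.72 ± 0.15, edgeR adjusted p = 0.0293). The 3 Cdx genes, which switch on Hox genes in the embryo, did not pass the count filter.

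Across the 12 libraries, the genes whose log2 CPM followed Hoxa5 most closely were Nrip1 (Pearson r = 0.94), Itpr1 (0.94) and Foxp1 (0.93). For Hoxa7 they included Upf1 and Mapk8ip1 (0.95 and 0.94), and they were for Hoxa9 Prpsap1, Ap3s1 and Usp28 (0.98, 0.97 and 0.97), and for Hoxa10 Gsk3b, Nr2f2 and Hnrnpl (0.93, 0.93 and 0.91). These were among the 3 highest of all genes tested for each member with a mean of at least 2 CPM. The 12 libraries share the level split and were searched over all genes tested, so the correlations are descriptions.

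Between females and males, no member passed in edgeR's sex contrast, DESeq2 or limma-voom, and 1 member was at an unadjusted p under 0.05, against 5.96% of all genes. Of all 15281 genes 9 (0.0589%) passed, 0.0131% higher and 0.0458% lower in females. The log2 difference, female minus male, was 0.18 ± 0.21 for Hoxa5, 0.25 ± 0.11 for Hoxa10 (edgeR adjusted p = 0.764) and -0.87 ± 0.49 for Hoxa6 (edgeR adjusted p = 0.764). Within one sex no member passed for level in edgeR. In females 0.36% of all genes did (0.308% higher and 0.0524% lower at L6S1), and 4 members were at an unadjusted p under 0.05, against 24.0% of all genes, with 0 called by DESeq2 or limma-voom. In males 0.222% of all genes passed (0.183% higher and 0.0393% lower at L6S1), and 2 members were at an unadjusted p under 0.05, against 8.83% of all genes, with 0 called by DESeq2 and 3 by limma-voom, which called 12.1% of all genes.

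**Figure D5:**
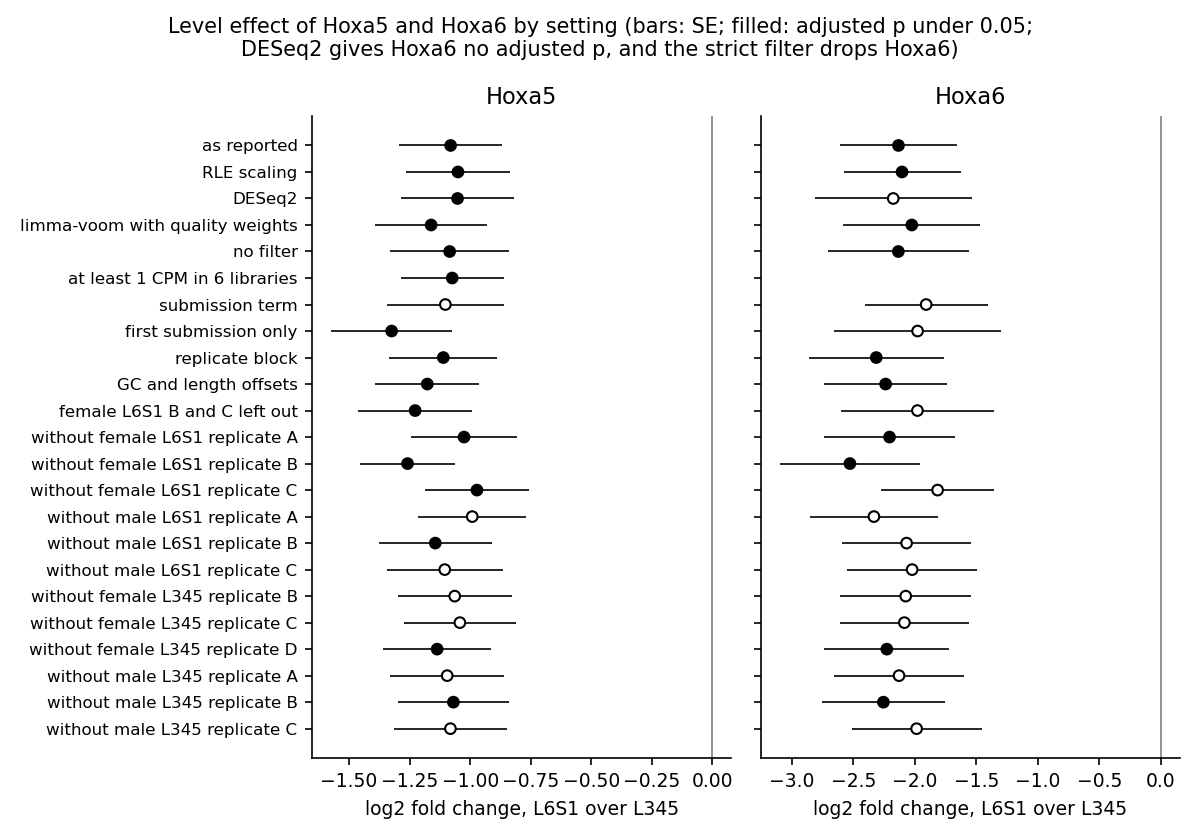
Log2 fold change of L6S1 over L345 (bars: SE) for Hoxa5 and Hoxa6 as reported and under each alternative, with filled points for an adjusted p under 0.05. Every point is negative, with Hoxa5 between -0.97 and -1.32 and Hoxa6 between -1.82 and -2.53, while the adjusted p of both moves across 0.05.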

How the data were processed

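RNA of 12 libraries of sorted dorsal root ganglion neurons was analysed. The authors deposited, per the file headers, 1 table per library with whole-number counts, CPM and RPKM for 41388 genes, with gene coordinates and lengths. The submitters' processing notes name Subread, featureCounts 1.4.5 and build GRCm38.p2. The sources used here give neither the annotation release nor the strand setting. In the tables the authors deposited, CPM is the count over its table's total and RPKM is that CPM per kilobase of gene length, checked in all 12. Counts alone were tested. GENCODE M21 gave symbols for 40254 genes (97.3%).

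Counts were fitted with edgeR 4.0.16 in R 4.3.3 (TMM, filterByExpr by group, robust quasi-likelihood F-test, 4 group means, 8 residual degrees of freedom, common biological coefficient of variation 0.239), with Benjamini-Hochberg adjustment over 15281 genes and calls at adjusted p under 0.05. The level contrast weighted both sexes equally. Exact permutations used log2(CPM + 0.5), and ratios of paralogues log2 counts with 0.5 added. Alternatives used DESeq2 1.42.0 and limma 3.58.1. The code was tested on simulated counts. The floor of 3 counts covers counting error only.

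All 9 members were named, and of the other lists every called gene. For each abundant member the 3 most alike genes were sought. A few genes and sequences that these rules name are not reported here. The members and lists were chosen with earlier results of these data known. Libraries were grouped by their labels. No library was left out of the reported fit.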

Additional observations from a re-analysis of the deposited data

Results flagged for a closer look

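A pair of member values lay far from the other libraries of their level, by the gap to the nearest library over the range of the 6 libraries, above Dixon's limit. For normally spread values chance flags about 1 in 20 groups, a rate that does not hold for counts near 0 such as these. Hoxa3 was at 0.549 CPM (9 counts) in female L6S1 A, against 0 to 0.15 CPM in the other 5 L6S1 libraries. Hoxa11 was at 0.0423 CPM (1 count) in male L6S1 B, against 0 in the other 5 L6S1 libraries, which is under the floor of 3 counts.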

How the results depend on the processing

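Hoxa5 was lower at L6S1 under all 10 alternatives and all 12 fits that left out 1 library (log2 fold change -1.32 to -0.97), and passed in 9 of 10 and 6 of 12. The exception among the 10 was the submission term (adjusted p = 0.0555), and the 6 left-out libraries that ended the call were male L6S1 A and C, female L345 B and C and male L345 A and C (adjusted p up to 0.0667). Hoxa6 was lower in every fit and passed in 5 of the 9 alternatives that held it and in 4 of 12 fits that left out 1 library. DESeq2 gave it no adjusted p, and the filter of 1 CPM in 6 libraries dropped it. The cause was not tested.

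The count of members called was 2, and became 6 with limma-voom, 1 with the filter of 1 CPM in 6 libraries, 0 with the submission term, 1 without female L6S1 B and C, and 0 to 5 with 1 library left out. None was called higher in any fit. Without female L6S1 A, 5 members passed (Hoxa3, Hoxa5, Hoxa6, Hoxa7 and Hoxa9), in a fit that called 4031 of 15683 genes. The count of all genes called was 356, and became 1519 with DESeq2, 3276 with limma-voom, 841 with no filter, 125 with the submission term, 1027 with GC and length offsets (800 higher and 227 lower, against 222 and 134, the called members being Hoxa5, Hoxa6 and Hoxa7), 137 without female L6S1 B and C, and 80 to 4031 with 1 library left out. With the letter of the library as a replicate block, 1985 genes and 3 members (Hoxa5, Hoxa6 and Hoxa9) were called. Correlations of same-letter deviations from the group means were 0.233, 0.018, 0.051, 0.084 and 0.093. They were set against no null, so they cannot show whether the letters pair the libraries.

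Signs that turned belong to values that did not pass. Hoxa4 for level was -0.21 with the submission term, -0.93 in the first submission and -0.77 without female L6S1 B and C, and -0.16 to 0.29 with 1 library left out. For the difference between the sexes in the level effect, Hoxa3 was -0.70 with limma-voom and -4.09 to 1.76 with 1 library left out. There Hoxa4 was -0.72 in the first submission and -0.82 without female L6S1 B and C, Hoxa5 -0.17 and -0.10, with -0.17 to 0.40 on leaving out 1 library, and Hoxa9 0.66 and 0.51, with -0.55 to 0.10. For sex, Hoxa3 was -1.99 to 0.94 and Hoxa4 -0.37 to 0.081 with 1 library left out, and Hoxa4 0.066 with GC and length offsets. Hoxa7 for sex was 0.0073 in the first submission and -0.14 to 0.049 with 1 library left out, and Hoxa9 0.12 in the first submission and 0.15 without female L6S1 B and C. Ratios of paralogues turned for Hoxa4 to Hoxc4 (-0.50 without female L6S1 B and C, -0.72 in the first submission), Hoxa5 to Hoxb5 (-0.12 and -0.18), Hoxa6 to Hoxc6 (-0.18 and -0.080) and Hoxa4 to Hoxb4 (-0.021 in the first submission). Both settings for the ratios were chosen after seeing the data.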
